A study of Mus musculus with 12 samples.

Results

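The smooth muscle contractile apparatus was followed as 39 genes in aortas of mice before and during experimental aortic dissection. A gene belonged to the list if a probe on the array carried its name, and 39 of the 39 names had one that could be tested, among 22761 genes tested in all. Aortic RNA of male mice, whose age the labels do not give, was measured on 12 one-colour arrays, 3 in each of 4 groups. Every mouse was homozygous for the floxed Socs3 allele (Socs3fl/fl), of mixed strain (129S5/SvEvBrd, C57BL6 and SJL) with 3 generations of backcross to C57BL/6J. Littermates without the SM22-Cre transgene were called wild type (WT), and carriers of SM22-Cre, whose Cre recombinase is driven by a smooth muscle promoter, were called smSocs3-KO. SM22 is the protein of Tagln, which is itself on the list. Aortas were taken before challenge or at day 3 of BAPN + AngII, given by minipump. The dose of BAPN, which blocks the crosslinking of collagen and elastin, was 150 mg/kg/day. That of AngII was 1000 ng/kg/min.

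Smooth muscle cells of the aortic media contract when calcium and calmodulin activate myosin light chain kinase, which phosphorylates the light chain so that smooth muscle myosin pulls on actin filaments anchored in dense bodies and at the cell edge. Myosin phosphatase reverses this, and nitric oxide acting through cGMP relaxes the cell. When smooth muscle cells leave the contractile state, the proteins of this apparatus are classically reduced, and their genes are known targets of serum response factor, which binds the CArG box.

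The CArG box, a palindrome of 10 letters with 6 A or T letters in its middle, was therefore looked up in the 250 bases before each RefSeq gene start (GRCm38.p6), where 35 of the 39 genes had an entry. Myh11, Actg2, Tagln and Rock1 had none. An exact box was present for 3 of the 35 genes (8.57%), namely Myl9, Vcl and Myl6, and in 1.62% of the 27025 genes of the table. With 1 G or C allowed among the 6 middle letters, a box was present for 6 of the 35 (17.1%), adding Acta2, Synm and Pdlim3, and in 9.78% of all genes. A match is a stretch of letters and not evidence of binding. The 4 stretches below are shown because they hold the boxes of Acta2, of both regulatory light chain and essential light chain genes, and of vinculin. Acta2 is the gene of the muscle actin that the paper used as a marker of smooth muscle cells. Capitals mark the boxes, each is printed along the gene's own strand, and positions are counted back from the base just before the start.
Acta2 (chr19:34255374-34255487, minus strand, boxes from -84 and -34, each with 1 G or C in the middle): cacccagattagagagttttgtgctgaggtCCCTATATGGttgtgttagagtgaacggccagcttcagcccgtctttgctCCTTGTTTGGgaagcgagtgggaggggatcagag
Myl9 (chr2:156775273-156775404, plus strand, exact box from -161, a second with 1 G or C from -99): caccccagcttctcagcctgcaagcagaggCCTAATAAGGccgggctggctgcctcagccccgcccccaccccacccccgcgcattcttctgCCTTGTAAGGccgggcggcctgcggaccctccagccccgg
Vcl (chr14:20929148-20929210, plus strand, exact box from -227): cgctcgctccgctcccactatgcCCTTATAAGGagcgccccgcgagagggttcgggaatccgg
Myl6 (chr10:128493020-128493089, minus strand, at 1 of its starts, exact box from -50): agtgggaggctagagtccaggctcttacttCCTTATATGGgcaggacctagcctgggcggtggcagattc

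Levels are given throughout as log2 of the array's processed signal relative to the 75th percentile of the same array, so that 1 unit is a doubling. Because probes differ in how strongly they bind, levels were compared between arrays for a gene and not between genes. Of the 39 genes, 38 were well above background on all 12 arrays, and phospholamban (Pln), an inhibitor of the calcium pump, on 10. No spot was saturated, but whether changes in high signals were compressed was not tested. In whole tissue, fewer smooth muscle cells and less RNA per cell cannot be told apart, and 3 arrays a group limit the precision.

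Several features of the arrays bear on all that follows. Socs3 was not lower under the smSocs3-KO label, where it stood at 0.24, 1.14 and 1.46 before challenge against 0.30, 0.32 and 0.75 in WT, so the genotypes are named as labelled. At day 3 it stood at 3.31, 2.28 and 4.13 under that label against 2.21, 2.30 and 0.64 in WT, where 0.64 was replicate 4. The difference at day 3 was 1.52 (adjusted p = 0.208 by limma). The part of Socs3 that the probe reads was not set against the deleted part. Slide 1 held the 6 WT arrays and, of the smSocs3-KO arrays, replicate 1 before challenge, and slide 2 held the remaining 5, so genotype and slide are largely confounded. WT day 3 replicate 4 stood apart. There the mean log2 signal of the 39 genes was 5.53, above the 5.32 to 5.44 of WT before challenge, whereas it was 4.82 and 4.73 on the other WT arrays at day 3 and 4.61 to 5.01 on the 3 smSocs3-KO arrays. On that array 23 of the 39 genes lay above the WT range before challenge and 7 below it, against 34 and 30 below it on the other WT arrays at day 3. These counts were made for the 39 genes only, so how they stand to the share of all genes is not known. The 10 leukocyte markers averaged 2.07 on WT day 3 replicate 4, against 3.54 and 3.09 on the other WT arrays at day 3 and 1.87 to 1.99 in WT before challenge. The 9 cell cycle genes averaged -0.50 there, against 2.29 on both others and -2.90 to -2.58 before challenge. Results are therefore given with and without this array. It was singled out in part by its high signal of the 39 genes. That more of them were called lower without it follows in part from that choice. Over all genes its mean correlation with its own group was 0.967, against 0.977 and 0.974 for the other WT arrays at day 3. The lowest of the 12 was 0.964, for smSocs3-KO before challenge replicate 1.

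**Figure D1:**
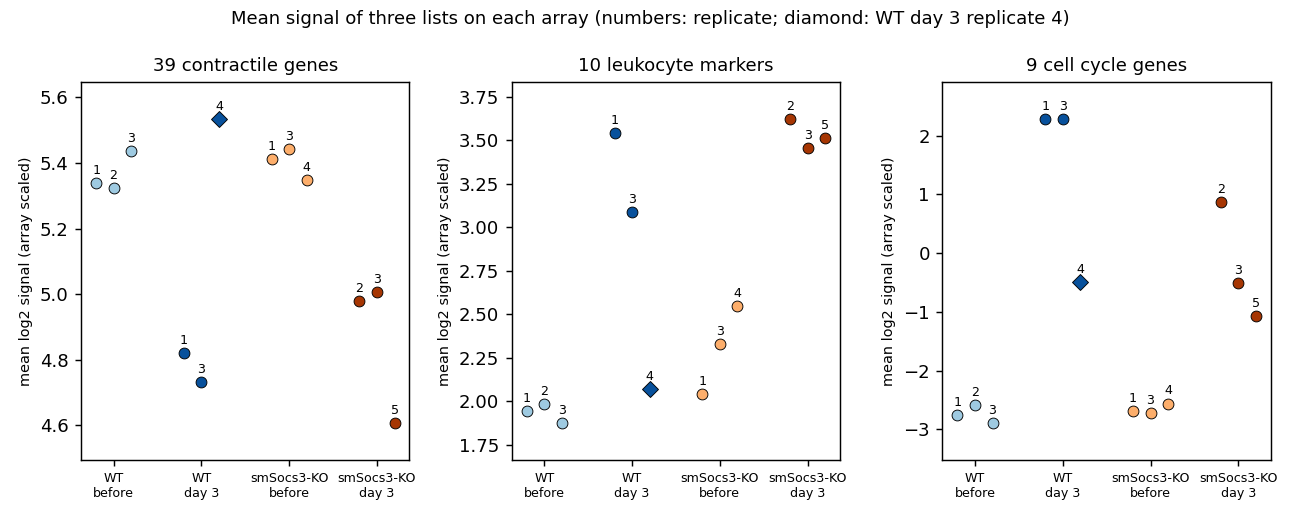
Mean array-scaled log2 signal (vertical axis) of the 39 contractile genes, 10 leukocyte markers and 9 cell cycle genes on each of the 12 arrays, by group, with replicate numbers beside the points. The diamond is WT day 3 replicate 4, at 5.53 for the contractile genes and at 2.07 for the leukocyte markers, near the arrays before challenge in both panels.

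The response to challenge was first taken as the mean of the responses in both genotypes. Of the 39 genes, 12 passed an adjusted p under 0.05 (limma across all genes, Benjamini-Hochberg), compared with 22.7% of all genes tested. Lower signal at day 3 was called for 10 of the 39 (9.18% of all genes) and higher signal for 2 (13.6% of all genes). The median log2 difference was -0.37 over the 39 genes and -0.05 over all genes, and 35 of the 39 were below 0. The genes that fell were Myh11, Myh10, Myl6, Synpo2, Pdlim7, Mylk, Ppp1r12a, Ppp1r12b, Rock1 and Gucy1a3, and those that rose were Tpm4 and Myh9. Acta2, Tagln, Cnn1 and Smtn, the usual markers of the contractile state, did not pass. Without WT day 3 replicate 4 the count was 25 of 39 (23 lower and 2 higher), which held all 12, and the share of all genes called was 28.3%. The count was between 3 and 10 without any other single array. It was 5 with no filter on dim probes, and 1, Tpm4, with the replicate number as a block. The split of 10 lower and 2 higher became 22 and 1 with the 75th percentile taken over probes well above background on all arrays, a scaling that moved the median of all genes to -0.18, and 17 and 1 with normexp background correction and quantile normalization.

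**Figure D2:**
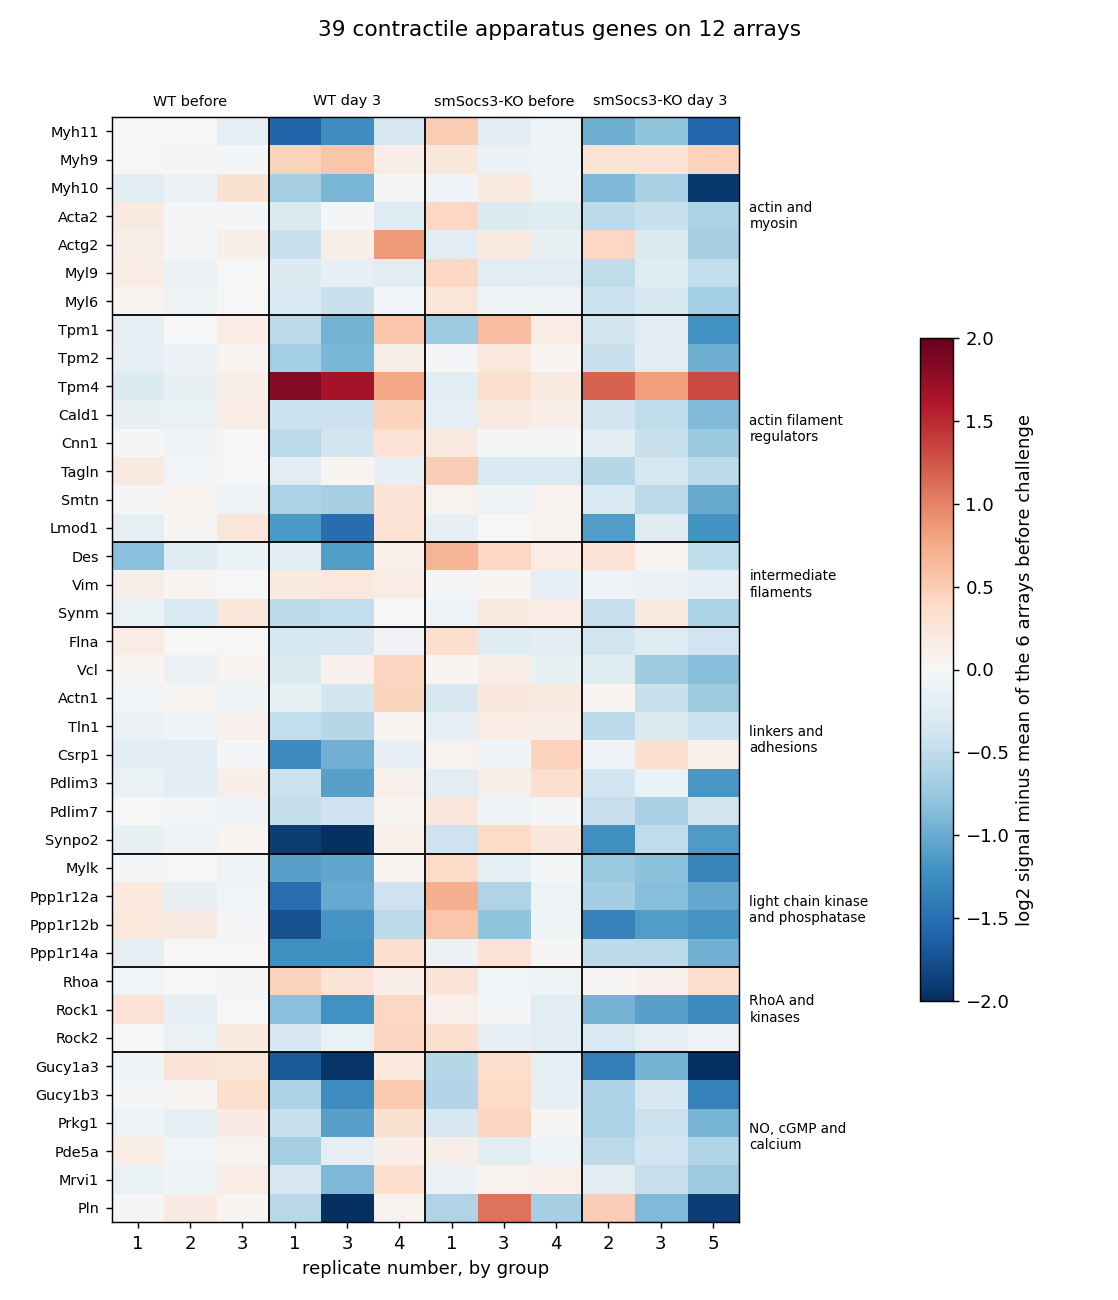
Log2 signal of each of the 39 genes (rows, grouped by role) on each of the 12 arrays (columns, by group and replicate), minus the gene's mean over the 6 arrays before challenge. Blue is lower and red is higher, with colours capped at 2 log2 units either way. The column of WT day 3 replicate 4 is red or pale for most genes. The other 5 arrays at day 3 are mostly blue, apart from rows such as those of Tpm4, Myh9 and Rhoa.

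Among the actin and myosin filament genes, 4 of 7 were called. Myh11, the smooth muscle myosin heavy chain, was read by a probe at chr16:14202190-14202249 (mm9, minus strand). It stood at 7.22, 7.21 and 7.06 in WT before challenge and at 5.62, 5.99 and 6.90 at day 3, and under the smSocs3-KO label at 7.73, 7.01 and 7.13 before and 6.25, 6.42 and 5.65 at day 3. Arrays at day 3 did not overlap those before challenge in either genotype, and replicate 4 was the highest of the WT arrays at day 3. The mean response was -1.09 ± 0.23 (SE, n = 3 per group, adjusted p = 0.0114 by limma), which is 47% of the level before challenge (95% confidence interval 33% to 67%). Myh11 passed under 23 of 24 alternative settings or left-out arrays.

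The non-muscle heavy chains moved in opposite directions. Myh10, the embryonic form often used to mark immature smooth muscle, read 3.87, 3.96 and 4.38 in WT before challenge and 3.42, 3.17 and 4.06 at day 3. Under the smSocs3-KO label it read 4.01, 4.27 and 3.98 before and 3.18, 3.43 and 2.15 at day 3, with no overlap there, while the WT groups overlapped through replicate 4. Its mean response was -0.84 ± 0.23 (SE, n = 3 per group, adjusted p = 0.0276 by limma). Myh9, which is expressed in most cells, read 5.66, 5.61 and 5.62 in WT before challenge and 6.09, 6.19 and 5.77 at day 3, and under the smSocs3-KO label 5.87, 5.52 and 5.57 before and 5.92, 5.92 and 6.10 at day 3. Its groups did not overlap in either genotype. The rise of Myh9 was 0.35 ± 0.11 (SE, n = 3 per group, adjusted p = 0.0459 by limma), near the threshold, and it passed under 7 of 24 alternatives. A second Myh9 probe gave -0.33 (adjusted p = 0.117 by limma over all kept probes, the fit used for every further probe below).

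The signals of the muscle actin and the light chains changed less. Acta2, Tagln and Myl9 had nearly the same mean over the 12 arrays, at 9.66, 9.66 and 9.67. Their highest smSocs3-KO values before challenge were also close, at 10.25, 10.29 and 10.25. Whether changes in such high signals were compressed was not tested, so a smaller change in signal need not be a smaller change in RNA. Acta2, the smooth muscle alpha-actin whose promoter boxes are shown above, was read at chr19:34316060-34316119 (mm9, minus strand). In WT it stood at 10.02, 9.81 and 9.80 before challenge and at 9.55, 9.80 and 9.58 at day 3. In smSocs3-KO arrays it stood at 10.25, 9.57 and 9.59 before and 9.32, 9.39 and 9.21 at day 3. The mean response was -0.36 ± 0.14 (SE, n = 3 per group, adjusted p = 0.0767 by limma), which is 77.8% of the level before challenge (63.1% to 95.9%). The array at 10.25 is the smSocs3-KO array on slide 1, and the other smSocs3-KO arrays before challenge, both on slide 2, lay below every WT array before challenge. Myl6, the essential light chain, read 9.71, 9.56 and 9.68 in WT before challenge and 9.36, 9.22 and 9.62 at day 3, and under the smSocs3-KO label 9.92, 9.60 and 9.57 before and 9.24, 9.35 and 9.0 at day 3. The WT groups overlapped through replicate 4 and the smSocs3-KO groups did not overlap. Its mean response was -0.37 ± 0.12 (SE, n = 3 per group, adjusted p = 0.0456 by limma), near the threshold, and it passed under 6 of 24 alternatives. Its second probe gave -0.27 (adjusted p = 0.198). Myl9, the regulatory light chain, gave -0.32 (adjusted p = 0.106). Actg2, the enteric-type actin, gave a value that rounds to zero, with an adjusted p of 0.997, and its signal was highest on WT day 3 replicate 4, at 7.07.

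Of the 8 genes for regulators on the actin filament, 1 was called, and it rose. Tpm4 encodes a tropomyosin of non-muscle cells (probe at chr8:74676891-74676950, mm9, plus strand). It read 5.07, 5.19 and 5.45 in WT before challenge and 7.17, 7.0 and 6.10 at day 3, and under the smSocs3-KO label 5.11, 5.68 and 5.51 before and 6.52, 6.16 and 6.65 at day 3. All 6 challenged arrays lay above all 6 arrays before challenge, with WT day 3 replicate 4 the lowest of the 6. The mean rise was 1.27 ± 0.20 (SE, n = 3 per group, adjusted p = 0.00526 by limma), or 241% of the level before challenge (178% to 325%). Tpm4 passed in the mean response under 24 of 24 alternatives, the only one of the 39 genes to do so.

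The muscle tropomyosins did not rise with it. Tpm2 gave -0.52 (adjusted p = 0.0705) and Tpm1 -0.45 (adjusted p = 0.284). Tpm1 is spliced into many forms, and its 6 kept probes ranged from -0.76 for the lowest to 0.48 for the highest, with none past the threshold. Lmod1, a leiomodin that nucleates actin filaments in smooth muscle, gave -0.82 (adjusted p = 0.0627), and Cald1, whose protein caldesmon holds myosin off actin, -0.36 (adjusted p = 0.152).

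The classical markers in this group lay lower at day 3 without passing. Tagln, the gene of SM22, read 9.98, 9.75 and 9.79 in WT before challenge and 9.59, 9.85 and 9.64 at day 3, and under the smSocs3-KO label 10.29, 9.49 and 9.51 before and 9.23, 9.46 and 9.28 at day 3. Its mean response was -0.30 ± 0.15 (SE, n = 3 per group, adjusted p = 0.171 by limma). As with Acta2, the smSocs3-KO array on slide 1 was far above its group, and compression of changes in so high a signal was not tested.

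Cnn1, the gene of calponin, an actin-binding inhibitor of myosin, read 9.09, 9.06 and 9.12 in WT before challenge and 8.59, 8.76 and 9.42 at day 3. The smSocs3-KO arrays read 9.30, 9.11 and 9.09 before and 8.92, 8.68 and 8.39 at day 3. WT day 3 replicate 4 was the highest of all 12 arrays, and the mean response was -0.33 ± 0.16 (SE, n = 3 per group, adjusted p = 0.137 by limma). Smtn, the gene of smoothelin, which is found in contractile smooth muscle, read 7.67, 7.77 and 7.60 in WT before challenge and 7.07, 7.03 and 7.96 at day 3. Under the smSocs3-KO label it read 7.76, 7.59 and 7.76 before and 7.39, 7.16 and 6.68 at day 3. Again replicate 4 was the highest of the 12, and the mean response was -0.48 ± 0.18 (SE, n = 3 per group, adjusted p = 0.0804 by limma). Without that array Cnn1 (-0.46, adjusted p = 0.020) and Smtn (-0.63, adjusted p = 0.00879) passed, as did Tpm2, Cald1 and Lmod1, so that 6 of the 8 were called, whereas Acta2 and Tagln did not pass.

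**Figure D3:**
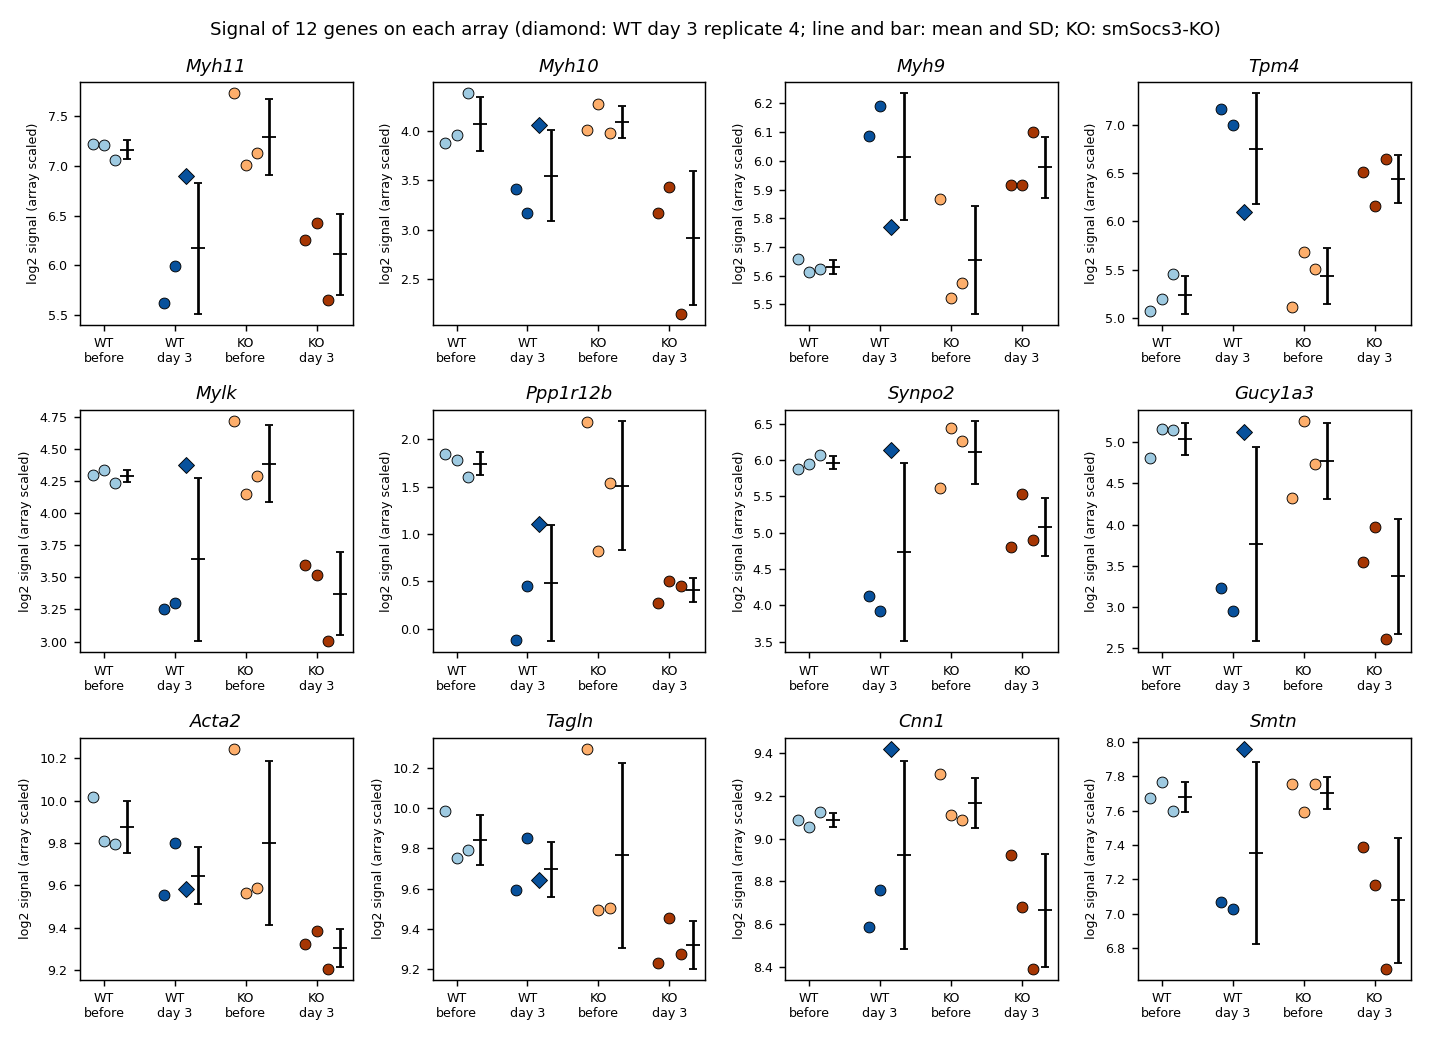
Array-scaled log2 signal of 12 of the genes on each array by group (KO stands for smSocs3-KO), with the mean and SD of the 3 arrays beside each group. WT day 3 replicate 4, drawn as a diamond, lies with the arrays before challenge for Mylk, Synpo2 and Gucy1a3 and above them for Cnn1 and Smtn, while for Tpm4 it stays above all arrays before challenge.

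The kinase and phosphatase of the myosin light chain were the group with the lowest median, -0.87 over 4 genes, of which 3 fell. Mylk, the light chain kinase, read 4.29, 4.33 and 4.24 in WT before challenge and 3.25, 3.30 and 4.37 at day 3. In smSocs3-KO arrays it read 4.72, 4.15 and 4.29 before and 3.59, 3.52 and 3.00 at day 3. WT day 3 replicate 4 was at the level before challenge and the other 5 challenged arrays lay below all 6 unchallenged ones. The mean response was -0.83 ± 0.21 (SE, n = 3 per group, adjusted p = 0.0201 by limma), or 56.3% of the level before challenge. Its second probe gave -0.76 (adjusted p = 0.0739).

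Ppp1r12b and Ppp1r12a encode targeting subunits of myosin phosphatase. Ppp1r12b read 1.84, 1.78 and 1.61 in WT before challenge and -0.12, 0.45 and 1.11 at day 3, and under the smSocs3-KO label 2.18, 0.82 and 1.54 before and 0.27, 0.51 and 0.45 at day 3, without overlap in either genotype. Its mean response was -1.18 ± 0.25 (SE, n = 3 per group, adjusted p = 0.011 by limma), and its 4 probes ranged from -1.27 to -0.54, with 2 of them past the threshold. Ppp1r12a read 7.37, 7.04 and 7.13 in WT before challenge and 5.68, 6.18 and 6.77 at day 3, and under the smSocs3-KO label 7.89, 6.58 and 7.09 before and 6.48, 6.33 and 6.17 at day 3. These groups did not overlap either, and its mean response was -0.92 ± 0.24 (SE, n = 3 per group, adjusted p = 0.0217 by limma). Ppp1r14a, the gene of CPI-17, an inhibitor of this phosphatase, gave -0.70 (adjusted p = 0.0687) and passed without WT day 3 replicate 4 (-0.95, adjusted p = 0.000899). The genes of the kinase, of the phosphatase subunits and of the inhibitor thus all had lower mean signals at day 3.

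RhoA and its kinases divided. Rock1, a kinase that restrains myosin phosphatase, read 2.76, 2.30 and 2.48 in WT before challenge and 1.63, 1.26 and 2.88 at day 3. The smSocs3-KO arrays read 2.56, 2.44 and 2.26 before and 1.52, 1.38 and 1.21 at day 3. The WT groups overlapped only through replicate 4, and the mean response was -0.82 ± 0.24 (SE, n = 3 per group, adjusted p = 0.0341 by limma). A second Rock1 probe gave -0.54 (adjusted p = 0.112). The paralog Rock2 gave -0.10 (adjusted p = 0.663) and Rhoa 0.22 (adjusted p = 0.167). A second Rhoa probe gave 2.04 in the smSocs3-KO response and -0.11 in WT, so the Rhoa probes disagreed.

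Among the linker, dense plaque and adhesion genes, 2 of 8 fell. Synpo2, the gene of synaptopodin-2, an actin-bundling protein of muscle, read 5.88, 5.94 and 6.06 in WT before challenge and 4.13, 3.92 and 6.14 at day 3. Under the smSocs3-KO label it read 5.61, 6.43 and 6.26 before and 4.80, 5.53 and 4.90 at day 3. Replicate 4 was above all WT arrays before challenge, and the other WT arrays at day 3 lay below all WT arrays before challenge. The mean response was -1.13 ± 0.35 (SE, n = 3 per group, adjusted p = 0.0406 by limma), and its 3 probes ranged from -1.61 to -1.13 with all 3 past the threshold.

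Pdlim7, a PDZ and LIM domain protein of actin filaments, read 6.67, 6.64 and 6.61 in WT before challenge and 6.21, 6.27 and 6.73 at day 3, and under the smSocs3-KO label 6.91, 6.59 and 6.64 before and 6.21, 6.03 and 6.31 at day 3. Its mean response was -0.38 ± 0.12 (SE, n = 3 per group, adjusted p = 0.0453 by limma), near the threshold, and its other probes gave -0.87 (adjusted p = 0.016) and -0.46 (adjusted p = 0.121). The other 6 genes of this group, for filamin (Flna), vinculin (Vcl), alpha-actinin (Actn1), talin (Tln1), Csrp1 and Pdlim3, ranged from -0.52 to -0.20 and did not pass. The probes of Vcl disagreed, since that of the gene-level fit gave -0.26 and a second, dimmer one -0.79 (adjusted p = 0.0223). None of the 3 intermediate filament genes was called. Desmin (Des) gave -0.23 and Synm, of synemin, -0.33, with 1 of the other 4 Synm probes past the threshold (-0.54, adjusted p = 0.0447), while vimentin (Vim), which is shared with fibroblasts, gave 0.03 (adjusted p = 0.845) with a 95% confidence interval of -0.17 to 0.22.

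The relaxation genes had a median of -0.57, and 1 of 6 was called. Gucy1a3 and Gucy1b3 encode the subunits of soluble guanylate cyclase, the receptor of nitric oxide. Gucy1a3 read 4.81, 5.16 and 5.15 in WT before challenge and 3.23, 2.95 and 5.12 at day 3, and under the smSocs3-KO label 4.33, 5.26 and 4.73 before and 3.54, 3.97 and 2.61 at day 3. WT day 3 replicate 4 lay within the range before challenge and the other 5 challenged arrays below all 6 unchallenged ones. Its mean response, -1.34 ± 0.37 (SE, n = 3 per group, adjusted p = 0.0286 by limma), was the largest of the 39, or 39.6% of the level before challenge (22.4% to 70%). Gucy1b3 gave -0.60 (adjusted p = 0.162), Prkg1, the cGMP-dependent kinase, -0.53 (adjusted p = 0.110), Pde5a, which degrades cGMP, -0.37 (adjusted p = 0.0771), Mrvi1, a substrate of that kinase, -0.39 (adjusted p = 0.158) and Pln -0.82 (adjusted p = 0.232). A second, dimmer Mrvi1 probe gave -0.97 (adjusted p = 0.0115), so that the Mrvi1 probes disagreed on the call. Without replicate 4 the count was 5 of 6, all but Pln.

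**Figure D4:**
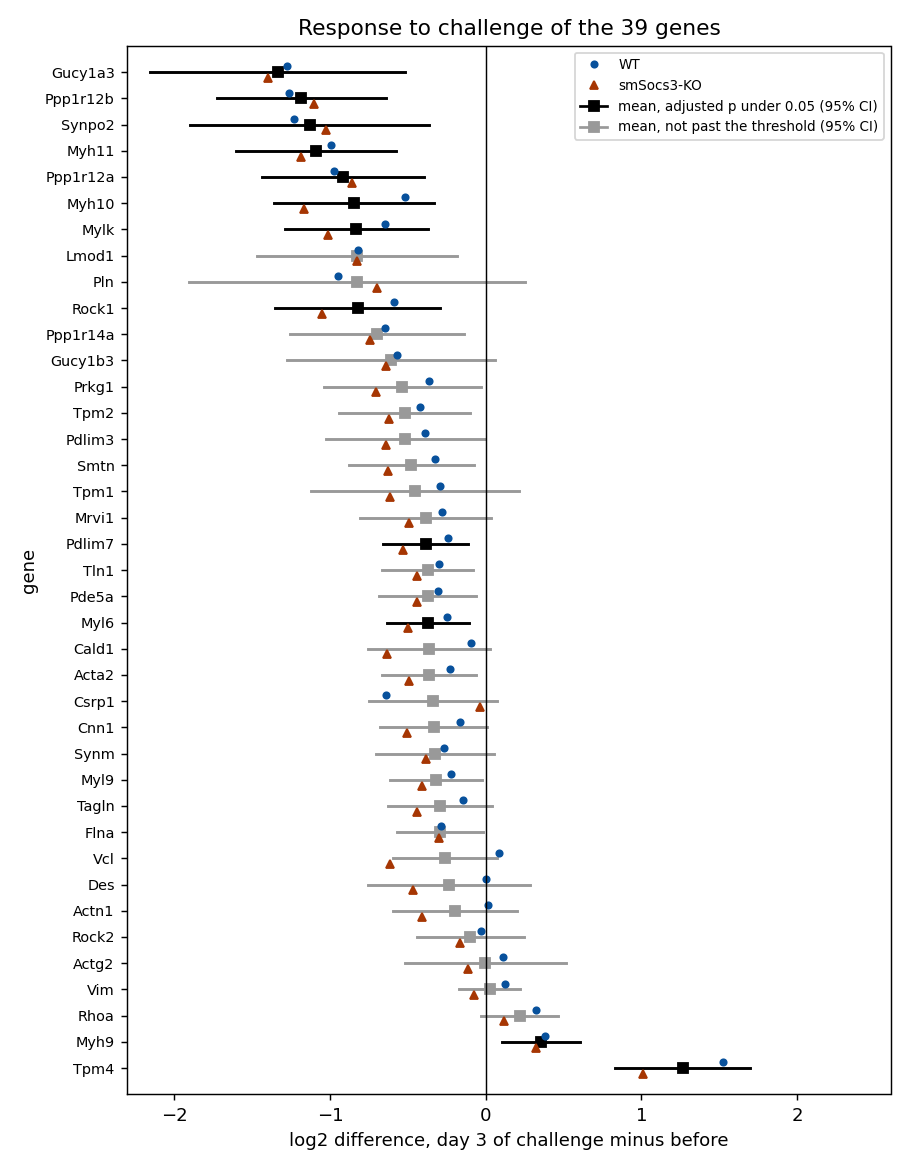
Mean response to challenge (squares, log2 difference of day 3 minus before, with 95% confidence intervals) of the 39 genes in order of size, with the WT (circles) and smSocs3-KO (triangles) responses. Black marks the 12 genes with an adjusted p under 0.05, from Gucy1a3 at -1.34 to Tpm4 at 1.27.

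In each genotype alone, few of these genes passed. In WT, 1 of 39 was called, Tpm4 (1.52 ± 0.28, adjusted p = 0.0324 by limma), compared with 4.68% of all genes and 3.59% in that direction. The median over the 39 was -0.29, with 32 below 0. An unadjusted p under 0.05 was found for 8 of the 39, beside 6055 of all 22761 genes. Under the smSocs3-KO label 0 of 39 were called by limma (2.45% of all genes), also with trended and robust moderation (3.59%). The median was -0.53 with 36 below 0, and 18 had an unadjusted p under 0.05, beside 5412 of all 22761 genes. At the study's array threshold, an unadjusted p under 0.01 with a fold change above 4 or below 0.25, 0 of the 39 passed in either genotype, compared with 1.28% of all genes in WT and 1.63% under the smSocs3-KO label.

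Separation of the arrays was counted next. Groups did not overlap for 5 of 39 genes that were lower at day 3 in WT (14.6% of all genes), namely Myh11, Myl9, Flna, Ppp1r12a and Ppp1r12b, and for 4 that were higher (20.7% of all genes), namely Myh9, Tpm4, Vim and Rhoa. Under the smSocs3-KO label 25 of 39 were lower without overlap (14% of all genes) and 2, Myh9 and Tpm4, were higher (14.1% of all genes). Without WT day 3 replicate 4, 11 of 39 were called in WT (15.9% of all genes), 10 of them lower, with Synpo2 at -1.94 (adjusted p = 0.00253), Gucy1a3 at -1.95 (adjusted p = 0.00957) and Myh11 at -1.36 (adjusted p = 0.0115). Without any one of the other 5 WT arrays the WT count was 0, where at most 0.0132% of all genes were called. The smSocs3-KO response keeps its own arrays without WT day 3 replicate 4 but shares its variance with the other groups. Its count was 9 of 39 without that array (8.43% of all genes), 8 of them lower. Within slide 2, that is without replicate 1 of smSocs3-KO before challenge, 0 were called by limma in the smSocs3-KO response (0.228% of all genes) and the median was -0.56.

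Before challenge the genotypes did not differ detectably in these genes. By limma 0 of 39 were called (0.0264% of all genes), and 0 passed the study's array threshold (0.242%). The median difference of smSocs3-KO minus WT was 0.02. Beside 1001 of all 22761 genes, 1 gene of the 39 had an unadjusted p under 0.05. That gene was Des, at 0.66, 1.24 and 1.37 in WT and 2.18, 1.92 and 1.65 under the smSocs3-KO label, a difference of 0.83 ± 0.33 (SE, n = 3 per group) with an adjusted p that rounds to 1. It was the only gene of the 39 whose groups did not overlap, with the smSocs3-KO arrays higher (6.48% of all genes). For Myh11 the 95% confidence interval of the difference was -0.60 to 0.85, and for Acta2 -0.50 to 0.35.

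At day 3, 0 of 39 were called by limma between genotypes (1.11% of all genes), and 0 passed the study's array threshold (1.11%). The median difference was -0.20, with 32 of 39 lower under the smSocs3-KO label, beside -0.08 over all genes. Beside 3685 of all 22761 genes, 3 genes of the 39 had an unadjusted p under 0.05. These were Vcl (-0.68 ± 0.21, adjusted p = 0.165), Vim (-0.31 ± 0.13, adjusted p = 0.270) and Csrp1, a LIM protein of smooth muscle (0.91 ± 0.26, adjusted p = 0.136). Csrp1 read 7.58, 7.87 and 8.66 in WT at day 3 and 8.75, 9.15 and 8.93 under the smSocs3-KO label, and was the only gene of the 39 that was higher there without overlap (7.86% of all genes). Acta2, Tagln and Vim were lower without overlap (12.7% of all genes). Acta2 stood at 9.55, 9.80 and 9.58 in WT and at 9.32, 9.39 and 9.21 under the smSocs3-KO label, but these groups are also the 2 slides.

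The direction of this difference rested on 1 array. Without WT day 3 replicate 4 the median was 0.047, 18 of 39 genes were lower, and Csrp1 was called (1.22, adjusted p = 0.0202), compared with 2.7% of all genes. Synpo2 went from 0.35 to 1.05 and Gucy1a3 from -0.39 to 0.28, whereas Acta2 stayed at -0.34 and -0.37 and Tagln at -0.37 and -0.40. In the interaction, which asks whether the response to challenge differed between the labels, 0 of 39 genes and 0% of all genes were called by limma. Beside 1214 of all 22761 genes, 1 of the 39, Vcl, had an unadjusted p under 0.05 (-0.70 ± 0.30, adjusted p = 0.925). The median of the interaction was -0.20, with 34 of 39 below 0, and 0.04 with 15 below 0 without replicate 4. No difference in response between the genotypes was therefore detectable at this number of arrays.

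**Figure D5:**
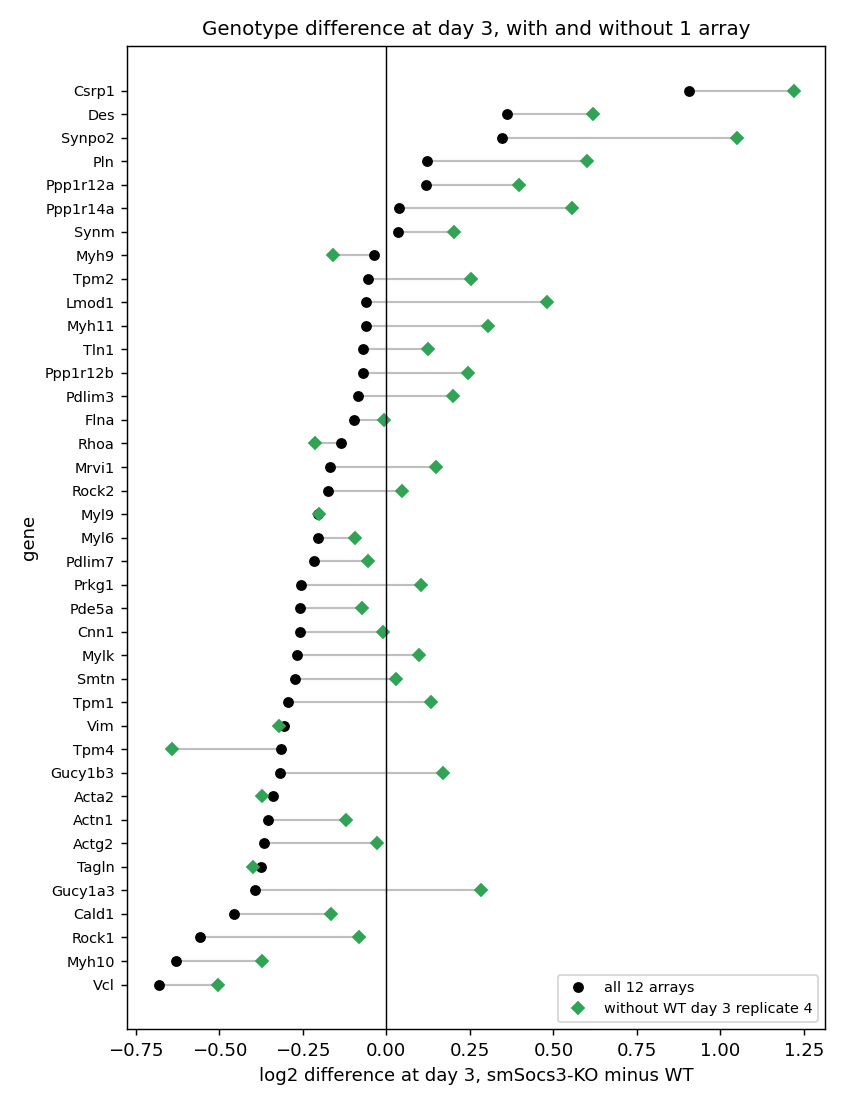
Difference at day 3, smSocs3-KO minus WT, in log2 units (horizontal axis) for each of the 39 genes, from all 12 arrays (circles) and without WT day 3 replicate 4 (diamonds). Most genes move to the right without that array, from 32 to 18 of 39 below 0, while Acta2, Tagln and Vim hardly move.

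Of 50 further contractile and cytoskeletal genes, 5 fell and 5 rose in the mean response, 10% each way beside 9.18% lower and 13.6% higher over all genes, so that these shares were near or below the background. The median was -0.05, as over all genes, and 32 of the 50 were below 0. Those that fell were Dmd (dystrophin, -1.02), Pdlim5 (-1.01), Filip1l (-0.83), Cav1 (caveolin-1, -0.79) and Speg (-0.53), and those that rose were Fhl2 (1.15), Tpm3 (another tropomyosin, 0.74), Cfl1 (cofilin, 0.55), Lmna (0.54) and Myl12a (a light chain of non-muscle myosin, 0.50).

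Of 45 measured regulators of calcium, phosphatase and RhoA, 7 fell and 7 rose, 15.6% each way beside the same 9.18% and 13.6%, with a median of -0.04. The share that rose was thus near that of all genes. Those that fell included Atp2b4 (a calcium pump of the cell membrane, -0.91), Itpr1 (the calcium release channel, -0.88), Npr1 (the receptor of atrial natriuretic peptide, which makes cGMP, -0.84) and Ppp1r12c (-0.54), with Pde3a, Arhgef1 and Rnd3 between -0.45 and -0.37. Those that rose included Rnd1 (2.18), Limk1 (a kinase of cofilin, 0.87) and Ppp1r14b (0.84), with Ppp1ca, Pde3b, Rac1 and Cdc42 between 0.38 and 0.58. In single comparisons Pde3b rose in WT (0.67, adjusted p = 0.0395), and under the smSocs3-KO label Pdlim5 (-1.49, adjusted p = 0.0391) and Rnd3 (-0.82, adjusted p = 0.0394) fell and Rnd1 (2.90, adjusted p = 0.0451) rose. At day 3 Rnd3, a brake on RhoA signalling, was lower under the smSocs3-KO label (-0.86, adjusted p = 0.0420), beside 0.154% of all genes called lower. These groups are also the 2 slides. With slide as a random block the share of all genes called in this comparison went from 1.11% to 0.00439%.

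Markers of other cells moved beside the contractile genes. In the mean response 8 of the 10 leukocyte markers and 9 of the 9 measured cell cycle genes rose, beside 13.6% of all genes. Of the cell cycle genes, Cdk1, Bub1 and Kif11 were well above background on only 7, 6 and 6 of the 12 arrays. Aurkb was so on 1 and was not tested. Probes were kept if every array of some group showed them, so such genes could pass through the groups where they are high. The cell cycle count was therefore partly set by the filter. The log2 summed signal of the leukocyte list ranged from 7.65 to 7.96 in WT before challenge, 7.45 to 8.25 at day 3, and under the smSocs3-KO label 7.30 to 8.43 before and 7.78 to 8.09 at day 3. That of the contractile list ranged from 12.70 to 12.83 and 12.39 to 12.74 in WT, and from 12.65 to 13.04 and 12.24 to 12.48 under the smSocs3-KO label. Such sums are weighted to the brightest genes. The mean log2 signal of the leukocyte list ranged from 1.87 to 1.99 before challenge and 2.07 to 3.54 at day 3 in WT. Under the smSocs3-KO label it ranged from 2.04 to 2.55 and from 3.45 to 3.62. For the contractile list the mean ranged from 5.32 to 5.44 and 4.73 to 5.53 in WT. Under the smSocs3-KO label it ranged from 5.35 to 5.44 and 4.61 to 5.01. The 8 fibroblast markers had a median response of 0.19 with 1 called, and the 8 endothelial markers 0.25 with 1 called. Of the 7 adipocyte markers 0 were called in the mean response by limma and 0 had an unadjusted p under 0.05, beside 8899 of all 22761 genes. These markers had a median of 0.73 with 7 of 7 above 0 (1.22 in the smSocs3-KO response). Their log2 summed signal ranged from 5.51 to 6.48 and 5.21 to 7.19 in WT, and from 5.47 to 6.46 and 5.70 to 8.25 under the smSocs3-KO label, before challenge and at day 3. The 4 red blood cell markers had a median of 0.78 with 1 called higher and 4 of 4 above 0. Between genotypes, the 7 mesothelial markers had a median difference of smSocs3-KO minus WT of 2.12 before challenge and 2.68 at day 3, with 7 of 7 above 0 and 1 called both times, beside 0.0264% and 1.11% of all genes. At day 3, 2 of the 8 fibroblast markers were called higher, beside 0.958% of all genes. The 10 leukocyte markers then had a median difference of 0.80 with 9 above 0, and the 9 cell cycle genes one of -1.70 with 9 below 0. Genotype and slide are largely confounded in these differences. Among striated muscle markers, which could enter with tissue around the aorta, Myh1, Myh2, Myh4 and Mylpf were not well above background, and the 11 tested had a median response of -0.29 with 1 higher and 1 lower. The part of these cells in the results above was not tested.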

How the data were processed

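Aortic total RNA was amplified, labelled with Cy3 and hybridised by the authors to Agilent mouse arrays. The deposited scanner files give a processed signal for every spot, an intensity from which background was subtracted by Feature Extraction (9.5.1.1 in the submitters' processing notes, 10.7.1.1 in the file headers). They also deposited a table of normalized intensity values of the same arrays, used here as an alternative only.

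Groups and replicate numbers came from the sample titles. After removal of controls and of spots marked as outliers, replicate spots of a probe were averaged and scaled, as log2, to the array's 75th percentile. Probes that every array of some group showed well above background were kept (32283 of 55681). The kept probe with the highest mean stood for its gene. Means of the 4 groups were fitted over 22761 genes with limma 3.58.1 in R 4.3.3, with p-values adjusted by Benjamini-Hochberg over all genes for each comparison, at a threshold of 0.05. The model was run on simulated data with the same spread in every group, no slide effect and no outlying array. That run therefore does not cover these features of the arrays. Alternatives to each step, the slide or replicate number as a block, and the omission of each array were run. Values in every array are given for the called genes and for Myh11, Myh10, Acta2, Tagln, Cnn1 and Smtn. The genes, lists and tests were chosen with earlier results of these data known. Gene names and probe positions (mm9) are those of the array. No mm9 gene models were used here. Whether the arrays of a group come from separate mice is not given in the labels, and p-values then measure only the spread between these samples. With 3 arrays against 3, an exact two-sided permutation test of 1 gene cannot give a p below 0.1.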

Additional observations from a re-analysis of the deposited data

How the results depend on the processing

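Of 288 counts and medians recomputed under the alternatives, 253 stayed within 1.5 times the count, or within 1 SD of the members' mean signal between arrays of a group for a median. Of 734 values of single genes, 732 kept their sign and 615 also their side of the threshold. Part of these values could not change, since leaving out a smSocs3-KO array leaves the WT differences as they were, and the reverse. For the responses to challenge, slide as a fixed block also repeats the omission of smSocs3-KO before challenge replicate 1. These totals therefore overstate how far the results were put to the test. The 12 genes called in the mean response (22.7% of all genes) became 23 (26.3%) with the 75th percentile taken over probes well above background on all arrays. That scaling moved the median of all genes from -0.05 to -0.18. With no filter on dim probes 5 were called in the mean response (9.73% of all genes). Leaving out each array in turn gave between 3 and 25 in that comparison, between 0 and 11 in WT, between 0 and 9 under the smSocs3-KO label and between 0 and 1 between genotypes at day 3, whose median ranged from -0.31 to 0.047. The highest of these counts all came without WT day 3 replicate 4, and the 3 without WT day 3 replicate 1. For the comparisons in that order, the share of all genes called ranged from 11.1% to 28.3%, 0% to 15.9%, 0.185% to 8.43% and 0.198% to 2.7%. Fewer than 8 were called in the mean response also without WT before challenge replicate 1 (4), 2 (5) or 3 (5), WT day 3 replicate 3 (5), smSocs3-KO before challenge replicate 3 (7), and smSocs3-KO day 3 replicate 2 (7) or 5 (6). The 1 call in WT (4.68% of all genes) became 2 with trended and robust moderation (8.1%), 3 with slide as a fixed block (10.4%) and 2 with slide as a random block (9.34%). It became 0 with no filter on dim probes (0.0287%) or with only the groups compared (0%). The 0 calls under the smSocs3-KO label became 1 with normexp background correction (Tpm4, beside 3.62% of all genes) and 1 with normexp and quantile normalization (Myh10, beside 3.19%). The WT response of Tagln turned to 0.00042 with quantile normalization, and that of Cnn1 ranged from -0.41 to 0.0026 over the omissions, above 0 without WT day 3 replicate 1. The cause was not tested.

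Replicate numbers are shared across groups, but each aorta is a terminal sample. Same-numbered arrays had correlations of their deviations from -0.40 to 0.46 over 11 pairs, and 4 of 11 arrays correlated best with their own number, so the numbers were not taken as pairing. With the replicate block 1 gene was called in the mean response (Tpm4, beside 3.93% of all genes) and 0 in WT (0% of all genes). The medians became -0.26 under the smSocs3-KO label, 0.054 between genotypes at day 3 and 0.17 in the interaction. Before challenge, the single smSocs3-KO array on slide 1 against the WT arrays, an alternative chosen after seeing the data, gave a median of 0.05 with 0 called by limma. The fit with only the groups compared was not made for the mean response and the interaction, which use all 4 groups. The number of arrays and, for Pln, signal over background limit these values.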
